A study of Mus musculus with 23 samples.

Results

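The messenger RNAs of 6 actin genes (Acta1, Acta2, Actb, Actc1, Actg1 and Actg2) and 4 tropomyosin genes (Tpm1, Tpm2, Tpm3 and Tpm4) were followed through the differentiation of mouse muscle cells. The 10 genes were taken by symbol from the 32793 genes of the expression tables, and all 10 were among the 14187 genes with enough counts to be tested. The cells were C2C12, a mouse myoblast line that divides in serum-rich medium and fuses into multinucleate myotubes when serum is lowered. Poly(A) RNA of 23 libraries was sequenced, from control cells (WT) and from cells labelled Runx1KO. Each genotype was harvested in growth medium with 20% FBS (day 0) and in medium with 2% horse serum on days 1, 3 and 6. There were 3 libraries in each of the 8 groups, apart from 2 analysed for WT growth medium. The sample titles call the last harvest day 6 and the series text calls it day 5, and the titles were followed. How the knockout was made, and whether it is 1 clone, is not given in the sources used here, nor is whether libraries of a group came from separate cultures, so p-values measure the spread between these libraries, which may be technical.

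Actin polymerises into thin filaments, and tropomyosin is a coiled-coil rod that lies along them and sets which motors and regulators can bind. Acta1 (skeletal) and Actc1 (cardiac) encode the α-actins of the sarcomere, Acta2 and Actg2 the actins of vascular and enteric smooth muscle, and Actb and Actg1 the cytoplasmic β- and γ-actins found in nearly every cell. Tpm1 and Tpm2 supply the main sarcomeric tropomyosins of fast muscle, Tpm3 supplies that of slow muscle together with short cytoskeletal forms, and Tpm4 is chiefly cytoskeletal. Developing skeletal muscle first makes Actc1 and Acta2 and later relies on Acta1, while serum response factor (SRF), which binds the CArG box CC(A/T-rich)GG, and its actin-sensing partners of the MRTF family drive several actin genes. Each tropomyosin gene yields several splice forms, which a value per gene adds together.

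The mouse genes lie apart from each other in the genome. By RefSeq in build GRCm38.p6, Acta1 occupies chr8:123891758-123894775, Actc1 chr2:114047282-114052875, Acta2 chr19:34240336-34255585, Actg2 chr6:83512909-83536251, Actb chr5:142903115-142907976 and Actg1 chr11:120345687-120348495. Tpm1 lies at chr9:67022590-67049672, Tpm2 at chr4:43513726-43523583, Tpm3 at chr3:90072651-90100902 and Tpm4 at chr8:72135288-72153142. Promoter sequences from RefSeq were matched by symbol for 8 of the 10 genes, all but Actb and Actg2. The 250 bases before the transcription start were searched on both strands for the CArG box (CC, then 6 bases that are each A or T, then GG), which was found in Acta1, Actc1 and Actg1. Of 32851 promoters of the same length, 482 (1.47%) hold such a box. The 3 promoters are shown because they place a match to 1 motif of 10 bases before both sarcomeric actin genes and before the cytoplasmic gene Actg1, whose RNA moved the other way. All are written 5′ to 3′ on the strand of the gene, with the CArG box in capitals. They lie on the minus strand at chr8:123894776-123895025, chr2:114052876-114053125 and chr11:120348496-120348745.
Acta1 promoter: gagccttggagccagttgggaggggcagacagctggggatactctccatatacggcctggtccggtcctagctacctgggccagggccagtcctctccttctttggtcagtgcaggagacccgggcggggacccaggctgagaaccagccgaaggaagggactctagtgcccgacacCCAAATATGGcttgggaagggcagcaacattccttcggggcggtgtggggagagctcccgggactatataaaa
Actc1 promoter: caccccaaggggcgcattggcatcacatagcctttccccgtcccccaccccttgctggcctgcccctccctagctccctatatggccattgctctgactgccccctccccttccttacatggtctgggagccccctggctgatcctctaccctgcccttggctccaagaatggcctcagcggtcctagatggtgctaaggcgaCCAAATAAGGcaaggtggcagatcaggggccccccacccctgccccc
Actg1 promoter: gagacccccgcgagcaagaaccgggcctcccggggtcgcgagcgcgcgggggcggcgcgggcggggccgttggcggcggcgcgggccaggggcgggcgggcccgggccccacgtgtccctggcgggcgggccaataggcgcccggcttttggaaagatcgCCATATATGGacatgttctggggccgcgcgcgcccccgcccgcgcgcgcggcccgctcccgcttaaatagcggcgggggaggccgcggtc
The box begins 73 bases before the start in Acta1, 47 before it in Actc1 and 90 before it in Actg1. TATAAA was found in Acta1 alone among the 8 genes (12.4% of all promoters hold it), and the E-box CANNTG, a motif of MyoD-type factors, in Acta1, Acta2, Actg1, Tpm1, Tpm2 and Tpm3 (66.2% of all). TGTGGT, a core of Runx sites (14.0% of all), and the MEF2 site (2.92% of all) were not among the letters of these windows. A match is only a match of letters. Stretches that differ from the CArG pattern in 1 letter were not counted, such as ccctatatgg in the Acta2 and Actc1 windows.

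Libraries held 22197606 to 23684077 estimated counts, so depth hardly differed. Runx1 messenger RNA was higher, not lower, in the KO-labelled libraries on each day (log2 fold change, log2FC, 0.51, 0.35, 0.54 and 1.02 on days 0, 1, 3 and 6), with every library above every WT library. The level of a transcript does not say whether protein is made, and the genotype is therefore given as labelled throughout. Replicate 2 of the day 1 group labelled KO stood apart from its 2 replicates (chi-square per degree of freedom 64.9 and 64.5, against 3.19 to 29.0 for all other replicate pairs). Myoblast and myotube markers (Myod1, Myf5, Des, Myog, Ckm and Mymk) were detected in every group, except that Ckm was at 0 in all KO-labelled growth-medium libraries, and summed to 1613 to 1763 TPM (transcript abundance scaled for length and depth) in WT and 4010.2 to 4583 in the KO-labelled libraries on day 6. Lists of adipocyte, endothelial and macrophage markers summed to at most 1.88 TPM in any library. In bulk RNA, fewer cells of a type and less RNA per cell cannot be told apart. Coding sequences of the actins are 86.2% identical between Acta1 and Actc1 and 88.7% between Actb and Actg1, so how the authors' estimates divided reads between these genes is uncertain.

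As a share of all actin TPM, the sarcomeric pair Acta1 and Actc1 went from almost nothing to a minority in WT and to a majority in the KO-labelled libraries. In WT the share was 0.00407 ± 0.00229% (SD, n = 2) in growth medium, 0.119 ± 0.054% on day 1, 12.8 ± 1.06% on day 3 and 12.7 ± 1.64% on day 6 (n = 3 each). In the KO-labelled libraries it was 0.00899 ± 0.000861%, 0.705 ± 0.105%, 29.2 ± 6.74% and 57.5 ± 2.85% (n = 3 each). On every day each library labelled KO lay above each WT library. WT hardly moved between days 3 and 6, while in the KO-labelled libraries it was higher on day 6 than on day 3 without overlap. The cytoplasmic pair Actb and Actg1 went from 97.5 ± 0.141% to 71.6 ± 0.911% in WT and from 97.0 ± 0.646% to 35.2 ± 2.81% in the KO-labelled libraries. Its libraries overlapped between genotypes in growth medium, were slightly higher where labelled KO on day 1 and lower on days 3 and 6. Acta2 and Actg2 together held 15.7 ± 0.88% in WT on day 6 and 7.29 ± 0.0414% in the KO-labelled libraries, again without overlap. All actin TPM together were 13113 ± 90.4 in WT growth medium and 11689 ± 599.7 on day 6, against 14509 ± 695 and 16967 ± 408 in the KO-labelled libraries. WT held 11448 ± 519 on day 1 and 14699 ± 486 on day 3, where the other genotype held 11578 ± 1372 and 13200.5 ± 2093, overlapping on both days. The shares are a description without a test, since the groups of genes were chosen with earlier results of these data known.

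Against growth medium, edgeR's quasi-likelihood test (Benjamini-Hochberg adjusted p under 0.05) called 8, 10 and 10 of the 10 genes changed on days 1, 3 and 6 in WT, where it called 54.7%, 58.2% and 63.6% of all tested genes. In the KO-labelled libraries it called 8, 9 and 10, against 52.3%, 57.6% and 70.0% of all tested genes. The comparisons of a genotype share their growth-medium libraries. On day 6, Acta1, Actc1, Acta2, Tpm1 and Tpm2 were higher than in growth medium in both genotypes, and Actb, Actg1, Tpm3 and Tpm4 were lower in both. Of all tested genes, 32.6% were called higher and 31.1% lower in WT on that day, and 36.6% and 33.5% in the KO-labelled libraries. Actg2 alone was called in opposite directions.

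Acta1, the α-actin of adult skeletal muscle, was near 0 in growth medium, at 0.27 and 0.64 TPM in the WT libraries (in replicate order, as in all lists of values here) and 1, 1.15 and 0.74 TPM in those labelled KO. On day 1 the WT libraries held 7.58, 6.27 and 13.8 TPM and those labelled KO 60.5, 43.7 and 79.2 TPM. The genotypes were thus apart within a day of serum withdrawal, with log2FC 2.76 ± 0.26, adjusted p = 1.58e-08 (± SE). On day 3 Acta1 stood at 1507, 1535 and 1654 TPM in WT and 3926, 2165 and 2278 TPM in the KO-labelled libraries (log2FC 0.98 ± 0.22, adjusted p = 0.000777). Replicate 1 of the latter group was far above the other two, and without it the log2FC was 0.66 (adjusted p = 0.014). On day 6 WT was at 1525, 1214 and 1488 TPM, whereas the KO-labelled libraries were at 7838, 9018 and 8780.3 TPM (log2FC 2.74 ± 0.23, adjusted p = 1.09e-09). The lowest library labelled KO exceeded the highest WT library several times over, and Acta1 ranked 6 to 7 among all genes by TPM there, against 110 to 140 in WT.

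Since Acta1 had only 17 counts in the WT and 55 in the labelled-KO growth-medium libraries together, its rise is given as a ratio of depth-scaled counts with an exact Poisson interval, which covers counting error only. By day 6 Acta1 had risen 2689.7-fold (95% interval 1679.9 to 4617) in WT and 8218-fold (95% interval 6314 to 10909) in the KO-labelled libraries. The fitted log2FC for WT on day 6 was 11.39, and 12.17 without WT growth-medium replicate 2, so its size rests on a few reads. On days 1 and 3, leaving out that library moved it from 4.19 to 4.98 and from 11.56 to 12.34.

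Actc1, the cardiac α-actin that embryonic muscle and regenerating fibres also make, had the largest log2FC between the genotypes among the 10 genes on day 6. In growth medium it was at 0.05 and 0.11 TPM in WT and 0.32, 0.21 and 0.48 TPM in the KO-labelled libraries, which is 3 and 19 counts in all. Day 1 gave 3.91, 2.48 and 6.63 TPM in WT and 17.6, 19.7 and 27.1 TPM in the KO-labelled libraries (log2FC 2.33 ± 0.31, adjusted p = 2.84e-06). On day 3 WT held 293, 312 and 335 TPM and the KO-labelled libraries 1842, 807 and 831 TPM (log2FC 2.04 ± 0.24, adjusted p = 2.55e-07). Here too replicate 1 labelled KO was the highest, and without it the log2FC was 1.54. WT Actc1 was down at 81.4, 57.7 and 83.9 TPM on day 6, while the other genotype held 1149.7, 1244 and 1257 TPM (log2FC 4.17 ± 0.26, adjusted p = 6.87e-12). Actc1 was thus lower on day 6 than on day 3 in every WT library, and in the KO-labelled libraries the day 6 values lay inside the wide range of day 3. The ratio to growth medium was 789-fold (95% interval 270.0 to 3826) in WT on day 6 and 3334-fold (95% interval 2135 to 5537) in the KO-labelled libraries.

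The balance between the sarcomeric actins therefore differed by group. Per TPM, Acta1 exceeded Actc1 by 2.18 ± 0.307-fold in WT on day 1, 5.00 ± 0.122-fold on day 3 and 19.2 ± 1.69-fold on day 6. In the KO-labelled libraries the ratio was 2.86 ± 0.612, 2.52 ± 0.337 and 7.02 ± 0.217 on the same days. Actc1 formed 4.98 ± 0.405% of sarcomeric actin TPM in WT and 12.5 ± 0.336% in the KO-labelled libraries on day 6. In both genotypes the ratio was higher on day 6 than on day 3, and on both days it was higher in WT.

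**Figure D1:**
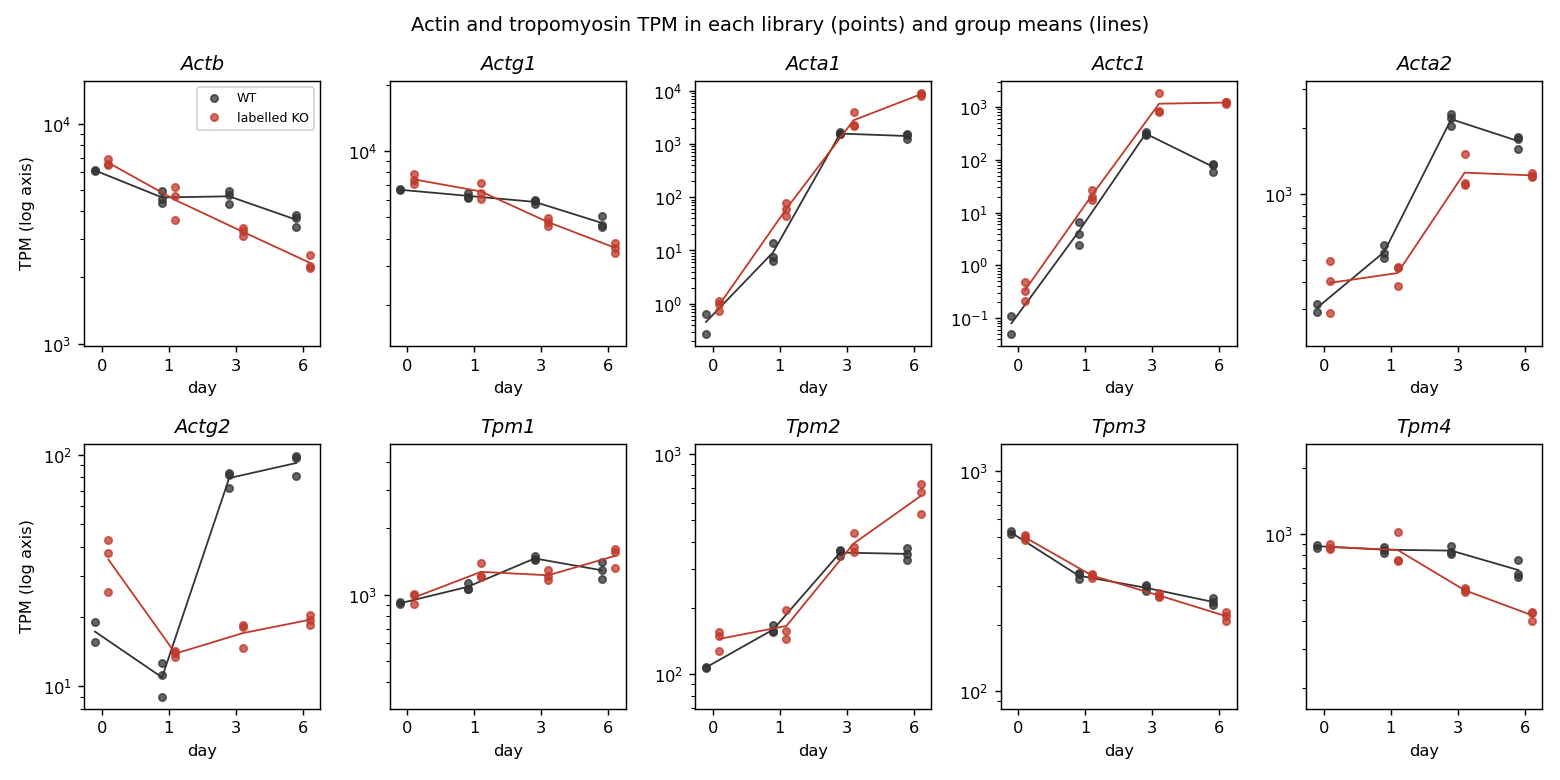
TPM of each actin and tropomyosin gene (vertical axes) in every library, by day and genotype, with KO for the KO-labelled libraries. The KO-labelled libraries lie above WT for Acta1 and Actc1 on every day, at levels near 0 in growth medium where neither was called, and Actg2 reverses its order between growth medium and day 3.

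Actb, the β-actin of cell edges and stress fibres, was the lower of the cytoplasmic actins on every day and fell with differentiation. It stood at 6094 and 6149.9 TPM in WT growth medium and 6474, 6546 and 6891 TPM in the KO-labelled libraries. On day 6 it was at 3400.2, 3719 and 3848 TPM in WT (log2FC against growth medium -0.93 ± 0.11, adjusted p = 1.21e-07) and at 2539, 2253 and 2207 TPM in the KO-labelled libraries (-1.63 ± 0.10, adjusted p = 1.44e-12). The genotype difference missed the threshold in growth medium, where every library labelled KO was slightly above both WT libraries, and on day 1 (log2FC 0.18 ± 0.11 and 0.0056 ± 0.099, adjusted p = 0.328 and 0.974). Actb was lower in the KO-labelled libraries on day 3 (log2FC -0.38 ± 0.099, adjusted p = 0.00315) and day 6 (-0.52 ± 0.10, adjusted p = 0.000163), with no overlap of libraries on either day.

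Actg1, the γ-actin, was at 6647 and 6690.4 TPM in WT growth medium and 7112, 7372 and 7833 TPM in the KO-labelled libraries, the most abundant of the 6 actins. On day 6 the values were 4504, 4591 and 5050.0 TPM in WT and 3836, 3614 and 3453 TPM in the KO-labelled libraries, and the log2FC against growth medium was -0.68 ± 0.077, adjusted p = 5.19e-08, and -1.15 ± 0.070, adjusted p = 9.4e-13. In WT Actg1 stayed the most abundant actin, and in the KO-labelled libraries Acta1 passed it on day 6. In growth medium every library labelled KO was above both WT libraries, and the log2FC of 0.22 ± 0.078, adjusted p = 0.0572 passed in 4 alternative fits and without KO-labelled replicate 1. The day 1 log2FC of 0.11 ± 0.069, adjusted p = 0.228 passed without KO-labelled replicate 2 (log2FC 0.17, adjusted p = 0.027). Between genotypes Actg1 was lower in the KO-labelled libraries on day 6 (log2FC -0.25 ± 0.069, adjusted p = 0.0059). On day 3 it missed the threshold (-0.16 ± 0.069, adjusted p = 0.0739), which it passed in 7 alternative fits. The Actg1 to Actb ratio of TPM was 1.09 ± 0.00202 in WT growth medium and 1.29 ± 0.0489 on day 6, against 1.12 ± 0.0197 and 1.56 ± 0.0466 in the KO-labelled libraries. The balance thus lay further towards Actg1 on day 6 in both genotypes.

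Acta2, vascular smooth muscle α-actin and also an early actin of myoblasts, rose in both genotypes and rose less in the KO-labelled libraries. In growth medium it was at 292 and 317 TPM in WT and 288, 403 and 497 TPM in the KO-labelled libraries, which overlapped and were not called, although without KO-labelled replicate 1 they were (log2FC 0.66, adjusted p = 0.00238). On day 3 it reached 2216, 2314 and 2045 TPM in WT and 1524, 1129.9 and 1105 TPM in the KO-labelled libraries (log2FC between genotypes -0.66 ± 0.15, adjusted p = 0.000925). Day 6 gave 1612, 1826 and 1789.9 TPM and 1196, 1242 and 1214 TPM (log2FC -0.39 ± 0.15, adjusted p = 0.0353). Every library labelled KO was below every WT library on both days. The day 6 call is fragile: leaving out a day 6 library ended it in 4 of 6 cases, with log2FC from -0.29 (without WT replicate 2) to -0.42 (without replicate 2 labelled KO) among those 4. Against growth medium the log2FC was 2.67 and 2.34 in WT on days 3 and 6, and 1.58 and 1.51 in the KO-labelled libraries.

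Actg2, the enteric smooth muscle γ-actin, was a minor actin that changed direction between the genotypes. Growth-medium libraries held 15.5 and 18.9 TPM in WT and 25.5, 37.6 and 42.7 TPM where labelled KO (log2FC 1.10 ± 0.17, adjusted p = 5.44e-05). On day 1 it was lower than in growth medium in both, at 12.5, 9 and 11.2 TPM in WT (log2FC -0.84 ± 0.18, adjusted p = 0.00039) and 13.9, 13.3 and 14.2 TPM where labelled KO (log2FC -1.53 ± 0.15, adjusted p = 1.78e-08). Every library labelled KO was still above every WT library, with a log2FC of 0.40 ± 0.17, adjusted p = 0.0593, which passed with no filter (log2FC 0.38, adjusted p = 0.0415). By day 6 WT had risen to 81.0, 96.4 and 99 TPM and the KO-labelled libraries stood at 20.4, 19.4 and 18.4 TPM, below their growth-medium level (log2FC -2.12 ± 0.15, adjusted p = 4.65e-11). Day 3 was alike, with 82.2, 83.8 and 71.9 TPM in WT and 18.3, 17.9 and 14.6 TPM in the KO-labelled libraries (log2FC -2.08 ± 0.15, adjusted p = 1.36e-10). The order of the genotypes was therefore opposite in growth medium and from day 3 on, without overlap at either time.

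The summed level of smooth muscle markers, like Acta2 and Actg2, was lower in the KO-labelled libraries than in WT on days 3 and 6, though Lmod1 among them was at 2.82 ± 0.48 TPM in WT and 4.22 ± 0.482 TPM in the KO-labelled libraries on day 6. Of 7 such markers (Myh11, Smtn, Cnn1, Lmod1, Synpo2, Mylk and Tagln), the TPM sum was 150.3 to 156 in WT and 143 to 172 in the KO-labelled libraries in growth medium, which overlap, whereas Actg2 was higher in the latter. It was 184 to 219 and 102 to 123 on day 1, 505 to 510.2 in WT and 188 to 233 in the KO-labelled libraries on day 3, and 542 to 551 and 309.8 to 317 on day 6, with all 7 detected in both genotypes on days 3 and 6. Within the KO-labelled libraries the sum was thus higher on day 6 than in growth medium, while Actg2 was lower. Myh11, the defining smooth muscle myosin, was at a group mean of at most 0.05 TPM in all 8 groups. Tagln was at 234 ± 23.8 TPM in WT and 125 ± 12.7 TPM in the KO-labelled libraries on day 6, and Smtn at a mean of 265 and 156 TPM, without overlap of libraries. A fibroblast list (Col1a1, Col1a2, Dpt, Pdgfra, Lum and Dcn) summed to 1919.8 to 2459 TPM in WT and 567 to 655 TPM in the KO-labelled libraries on day 6, with all 6 detected. Cardiac markers (Nppa, Nppb, Myh6, Ryr2, Tnni3 and Nkx2-5), which bear on Actc1, summed to 25.9 to 31.8 TPM in WT, where 2 of the 6 were at 0, and to 25.1 to 26.3 TPM in the KO-labelled libraries on day 6. The part of any of these in the results was not tested.

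Tropomyosin RNA turned towards Tpm1 and Tpm2 in both genotypes, and further in the KO-labelled libraries. The share of Tpm1 and Tpm2 in tropomyosin TPM was 42.2 ± 0.774%, 51.3 ± 1.49%, 61.6 ± 1.17% and 63.6 ± 2.37% in WT on days 0, 1, 3 and 6. In the KO-labelled libraries it was 44.8 ± 1.08%, 54.9 ± 0.818%, 66.1 ± 1.69% and 76.7 ± 2.82%. The gap was a few percentage points up to day 3 and wider on day 6. Actin TPM exceeded tropomyosin TPM by 5.41 ± 0.0834-fold in WT growth medium and 4.54 ± 0.219-fold on day 6, and by 5.84 ± 0.189-fold and 6.11 ± 0.474-fold in the KO-labelled libraries.

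Tpm2, β-tropomyosin, had the largest log2FC between genotypes among the 4 genes on day 6. It was at 107 and 108 TPM in WT growth medium and 128, 149.9 and 156 TPM in the KO-labelled libraries (log2FC 0.52 ± 0.14, adjusted p = 0.00929). On day 6 the libraries held 329.6, 374 and 353 TPM in WT and 534, 674 and 728 TPM where labelled KO (log2FC 1.14 ± 0.12, adjusted p = 4.4e-08), with no overlap. Its share of tropomyosin TPM was 13.7 ± 0.382% in WT and 23 ± 1.61% in the KO-labelled libraries on that day. The day 3 call is fragile: the log2FC of 0.37 ± 0.12, adjusted p = 0.015 became 0.13 (adjusted p = 0.374) with limma on log2(TPM + 1), and 0.28 (adjusted p = 0.0954) without day 3 replicate 1 labelled KO. Without WT day 3 replicate 1 or 2 it also missed the threshold (adjusted p = 0.051 and 0.0623). The growth-medium call was lost without WT replicate 1 (0.48, adjusted p = 0.106).

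Tpm1, α-tropomyosin, was the most abundant of the 4 genes in every group, at 908 and 921 TPM in WT growth medium and 908, 997 and 1002 TPM in the KO-labelled libraries. On day 6 it stood at 1176, 1402 and 1289.6 and 1316, 1566 and 1616 TPM, which overlap, with a log2FC between genotypes of 0.22 ± 0.11, adjusted p = 0.101. That difference passed without KO-labelled replicate 1 (log2FC 0.32, adjusted p = 0.0157) or WT replicate 2 (log2FC 0.34, adjusted p = 0.0143) and with limma on log2(TPM + 1) (log2FC 0.22, adjusted p = 0.0341). On day 3 the log2FC of -0.14 ± 0.11 (adjusted p = 0.293) passed with limma on log2(TPM + 1) (log2FC -0.26, adjusted p = 0.0142) and with only the groups compared (log2FC -0.18, adjusted p = 0.0164). Its one genotype call in the full model was on day 1 (0.34 ± 0.11, adjusted p = 0.0116), and it rested on the library that stood apart: without day 1 replicate 2 labelled KO the log2FC was 0.23 (adjusted p = 0.0871). Without WT day 1 replicate 1 it was 0.31 (adjusted p = 0.0506). Its increase over growth medium on day 6 was small in WT (0.29 ± 0.12) and in the KO-labelled libraries (0.32 ± 0.11). The WT call was lost without either WT growth-medium library or without WT day 6 replicate 2 (adjusted p = 0.128, 0.0841 and 0.228). That in the KO-labelled libraries was lost without growth-medium replicate 1 or day 6 replicate 3 labelled KO (adjusted p = 0.0575 and 0.0777).

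Tpm3 and Tpm4 fell. Tpm3 went from 530.2 and 514 TPM to 245, 252 and 264 TPM in WT between growth medium and day 6 (log2FC -1.23 ± 0.073, adjusted p = 1.15e-12). In the KO-labelled libraries it went from 482, 501 and 512 TPM to 228, 207 and 219 TPM (-1.38 ± 0.067, adjusted p = 1.41e-14). Tpm3 was not called between genotypes on any day, and the day 6 difference of -0.16 ± 0.066 (adjusted p = 0.0565) passed the threshold in some alternatives, such as DESeq2 (-0.16, adjusted p = 0.0218). Tpm4 fell from 893 and 866 TPM to 636, 655 and 763 TPM in WT (-0.55 ± 0.086, adjusted p = 7.67e-06) and from 857, 895 and 864 TPM to 439, 403 and 439.5 TPM in the KO-labelled libraries (-1.14 ± 0.079, adjusted p = 8.36e-12). Tpm4 was lower in the KO-labelled libraries on day 3 (log2FC -0.45 ± 0.078, adjusted p = 6.42e-05) and day 6 (-0.55 ± 0.078, adjusted p = 4.58e-06), without overlap.

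Between genotypes the test thus called 2 of the 10 genes in growth medium (Actg2 and Tpm2, both higher where labelled KO), where 17.5% of all tested genes were called (7.36% higher and 10.1% lower). It called 3 on day 1 (Acta1, Actc1 and Tpm1, all higher), against 42.2% of all tested genes (22.9% higher and 19.2% lower), so that the members' share was below the background. On day 3 it called 7, with Acta1, Actc1 and Tpm2 higher and Acta2, Actg2, Actb and Tpm4 lower, against 43.2% (24.0% higher and 19.2% lower). On day 6 it called 8, Actg1 joining the lower genes, against 42.9% (22.0% higher and 20.8% lower). The log2 scale of TPM lowered the median genotype difference of all tested genes by 0.15 on day 3 and 0.12 on day 6 against the count scale. No called gene among the 10 changed direction on it.

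**Figure D2:**
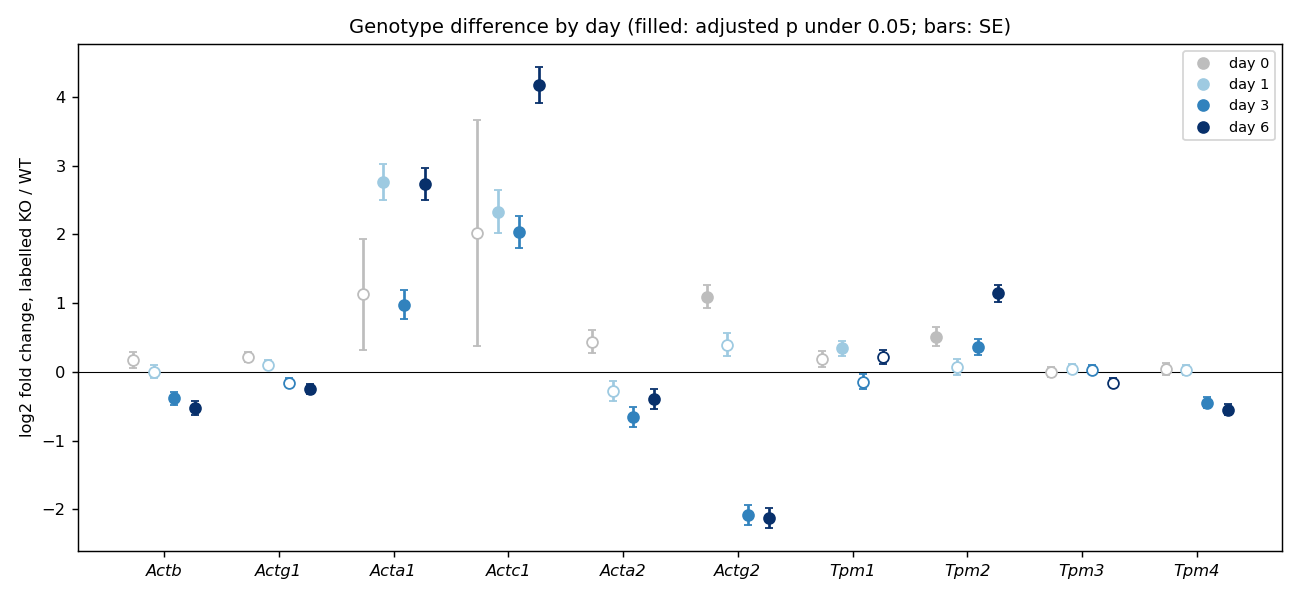
Log2 fold change of the KO-labelled libraries against WT (vertical axis, bars show ± SE from edgeR) for each of the 10 genes on days 0, 1, 3 and 6. Acta1 and Actc1 lie highest on day 6 at 2.74 and 4.17, and Actg2 lowest at -2.12.

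An interaction term over 4 groups asked if the change since growth medium was itself unlike in the genotypes. It called 0 of the 10 genes on day 1 (3.95% of all tested genes), with 2 called by DESeq2 and no gene's adjusted p below 0.0789 in edgeR. At an unadjusted p under 0.05, 3 of the 10 passed on day 1. The shares of all tested genes passing that rule, or called by DESeq2, are not given, so neither count can be read against a background. It called 5 on day 3 (10.7% of all tested genes, 6.65% with a positive and 4.06% with a negative value) and 6 on day 6 (13.0%, 7.54% and 5.42%). Actg2 differed most, by -3.17 ± 0.23, adjusted p = 2.96e-09 on day 3 and -3.21 ± 0.23, adjusted p = 9.78e-10 on day 6. Acta2, Actb, Actg1 and Tpm4 also had more negative changes in the KO-labelled libraries on both days. Tpm2 had a more positive one on day 6 (0.63 ± 0.18, adjusted p = 0.0193), which was lost on the TPM scale (0.44, adjusted p = 0.0834). For Acta1 and Actc1 the day 6 interaction was 1.61 and 2.15 (adjusted p = 0.331 and 0.667), resting on 17 and 3 counts in WT growth medium. Limma on log2(TPM + 1) called both, at 2.17 and 3.73 (adjusted p = 0.000137 and 5.28e-07). On log2(TPM + 0.1) it also called both, at 1.60 and 2.80 (adjusted p = 0.0123 and 0.00023), so the sizes depend on the amount added. With only the groups compared, edgeR called Acta1 (1.59, adjusted p = 0.0452).

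The count and TPM tables together carry a trace of splice forms, because a gene's count divided by its TPM is proportional to the mean length of its transcripts in the authors' estimate. This measure was chosen after its values were seen. Relative to the median gene of each library and set to 100% in WT growth medium, Tpm1 stood at 97.7 ± 4.10% in WT and 89.4 ± 1.21% in the KO-labelled libraries on day 6. Tpm2 stood at 106 ± 1.28% and 117 ± 0.364%, and Tpm3 at 99.4 ± 0.397% and 94.9 ± 0.944%. The estimated mix of Tpm1 and Tpm3 transcripts was thus shorter, and that of Tpm2 longer, in the KO-labelled libraries, without overlap of libraries for any of the 3 on day 6. Tpm3 differed by less than 5%. In growth medium Tpm1 lay the other way, at 103 ± 0.371% in the KO-labelled libraries, also without overlap. Actb, Actg1, Acta2 and Tpm4 differed between genotypes on day 6 by at most 0.19%. RefSeq lists 10 curated transcripts for Tpm1, 7 for Tpm3, 3 for Tpm2, 2 for Actg1 and 1 each for Actb, Acta2 and Tpm4. Of 3310 genes with at least 1000 counts in every library, 53 (1.60%) differed by over 5% without overlap, Tpm1 and Tpm2 among them. The share without overlap alone is not given, so the lack of overlap of Tpm3, or of Tpm1 in growth medium, has no background. Which splice forms these are cannot be read from gene tables. On the log2(TPM + 1) scale the day 6 difference of Tpm2 was 0.86, against 1.14 on counts, a gap that also holds the 0.12 by which the TPM scale lowered the median gene on that day.

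**Figure D3:**
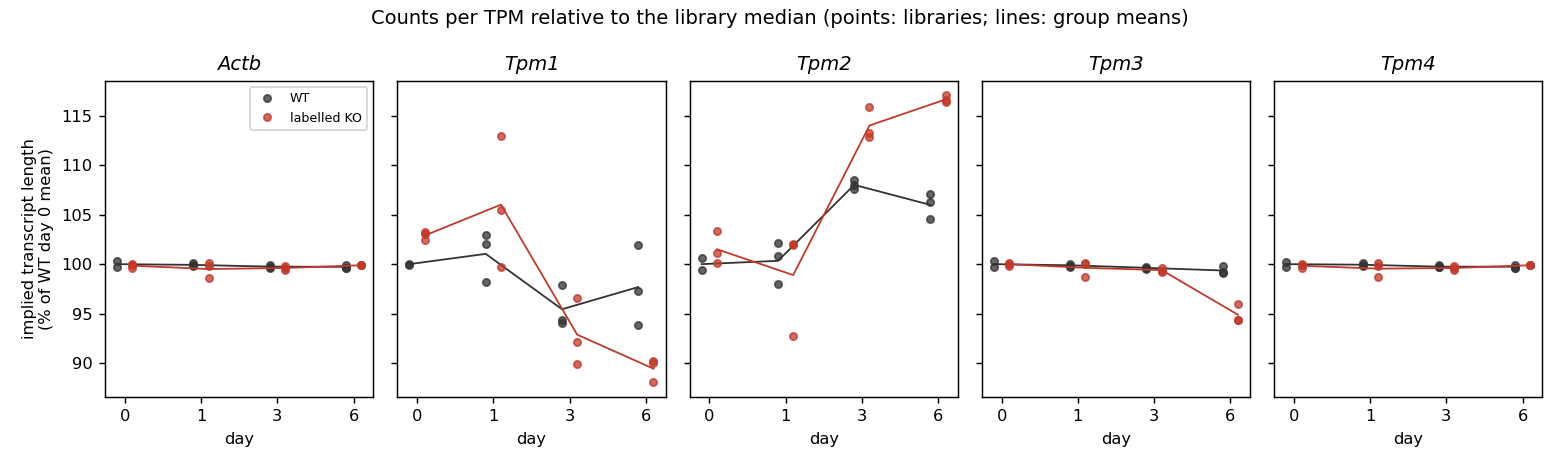
Mean transcript length implied by count over TPM (percent of the WT growth-medium mean, vertical axis) by day for genes of both families, with a point for each library. On day 6 Tpm2 KO-labelled libraries lie near 117% and WT near 106%, while Actb stays level.

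The partners of sarcomeric actin were read from a list of 22 genes of the thin filament and Z-disc, all of them tested. Labelled KO against WT, 4 were higher and 0 lower in growth medium, 11 and 3 on day 1, 16 and 3 on day 3, and 18 and 1 on day 6. Of all tested genes, 17.5%, 42.2%, 43.2% and 42.9% were called in either direction on these days, so that in growth medium the list's share was near the background. On day 6, 22.0% of all tested genes were higher. The median log2FC of the list on day 6 was 1.94, beside 0.0037 for all tested genes. Actn2, an α-actinin of the Z-disc, was at 0.18 ± 0.02 TPM in WT and 22.4 ± 0.958 TPM in the KO-labelled libraries (SD, n = 3; log2FC 7.08 ± 0.30, adjusted p = 1.02e-12). Xirp2, an actin-binding repeat protein of muscle attachment sites, rested on fewer counts in WT, at 0.0367 ± 0.0404 TPM against 1.72 ± 0.19 TPM. The one gene lower on day 6 was Actn3, the fast-fibre α-actinin (-0.68 ± 0.091, adjusted p = 1.72e-06), at 157 ± 22.9 TPM in WT and 90.8 ± 1.95 TPM. The paralogs Actn2 and Actn3 thus differed between genotypes in opposite directions.

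Against growth medium 19 of the 22 were higher and 0 lower on day 6 in each genotype, beside 32.6% of all tested genes higher in WT and 36.6% in the KO-labelled libraries. Their median log2FC was 4.80 in WT and 6.86 in the KO-labelled libraries, or 3.19 and 5.88 with genes at 0 in growth medium (5 in WT and 2 where labelled KO) set to a floor of 3 counts per library. Tnnc2, troponin C of fast muscle, had 0 counts in WT growth medium and reached 108 ± 5.47 TPM in WT and 646 ± 107 TPM in the KO-labelled libraries on day 6. Lmod3, a nucleator of thin filaments, also had 0 counts in WT growth medium and reached 11 ± 2.35 and 40.2 ± 3.75 TPM.

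Regulators of cytoplasmic actin leaned the other way. Of 26 listed, 24 were tested, of which 15 were lower on day 6 and 1 higher in the KO-labelled libraries, with a median log2FC of -0.29, where 20.8% of all tested genes were lower. These were small differences: only 2 of the 15 had a log2FC beyond 1 in size. The counts were 1 lower and 6 higher in growth medium, 3 and 5 on day 1, and 12 and 2 on day 3, when 2 of the 12 passed that size. Called in either direction were 17.5% of all tested genes in growth medium, 42.2% on day 1, where the list's share was lower, and 43.2% on day 3. Leaving out either WT growth medium library took the 6 higher to 3, leaving out KO-labelled day 1 replicate 1 took the 3 lower to 5, and leaving out WT day 3 replicate 2 took the 2 higher to 1. Flna, the filament crosslinker filamin A, was at 453 ± 90.6 TPM in WT and 176 ± 29.0 TPM in the KO-labelled libraries on day 6 (-1.23 ± 0.091, adjusted p = 1.24e-10). Pfn2, a profilin that feeds actin monomers to growing filaments, was -1.02 ± 0.13, adjusted p = 6.02e-07, and Tmsb10, a thymosin that holds monomers back, was the one gene higher (0.59 ± 0.16, adjusted p = 0.00553). That call ended without WT replicate 3, at log2FC 0.39, adjusted p = 0.0622. Against growth medium, 11 were lower and 4 higher in WT on day 6, together near the 63.6% of all tested genes. They included Diaph3, a formin (-2.20 ± 0.16), and Tagln2 (-1.07 ± 0.12) among the lower, and Pfn2 (1.58 ± 0.15) and the severing protein Gsn (1.15 ± 0.11) among the higher. In the KO-labelled libraries 20 were lower and 4 higher, beside 70.0% of all tested genes called.

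**Figure D4:**
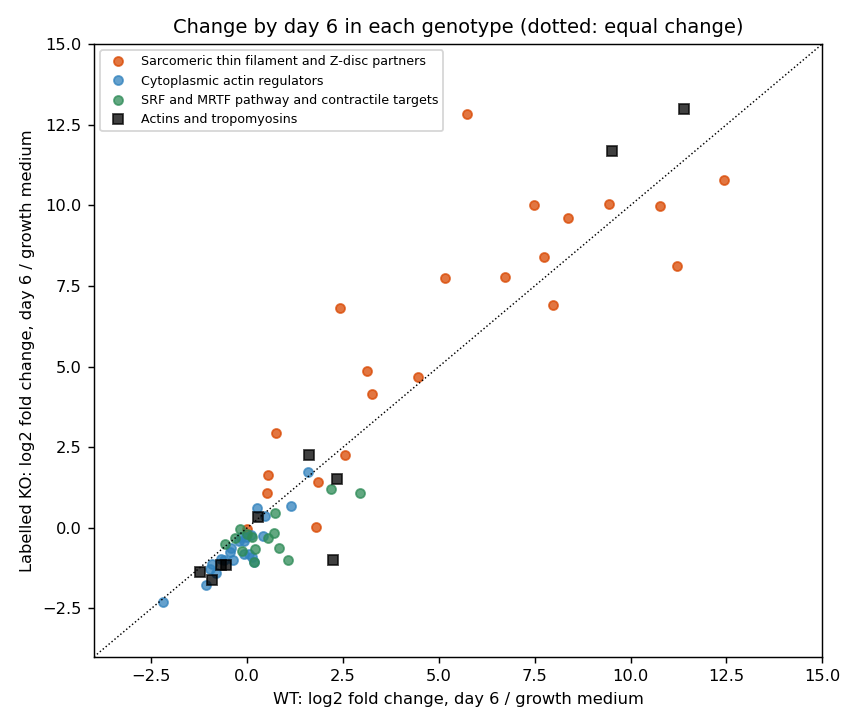
Log2 fold change on day 6 against growth medium, in WT (horizontal axis) and in the KO-labelled libraries (vertical axis), 1 point per gene. Shown are the sarcomeric, cytoplasmic and SRF lists and the 10 actin and tropomyosin genes, with a dotted line of equal change. The list medians in WT and the KO-labelled libraries were 4.80 and 6.86 (sarcomeric), -0.13 and -0.78 (cytoplasmic) and 0.21 and -0.31 (SRF).

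Targets and members of the SRF and MRTF pathway, a list of 15 genes that shares Flna with the regulators above, moved in both directions. Called higher and lower in the KO-labelled libraries were 7 and 0 in growth medium, 3 and 1 on day 1, 2 and 10 on day 3, and 2 and 8 on day 6, to be read beside the 17.5%, 42.2%, 43.2% and 42.9% of all tested genes called. With a log2FC beyond 1 in size, 4 of the 10 lower on day 3 and 2 of the 8 on day 6 remained. Without replicate 1 of WT growth medium the 7 became 3, without KO-labelled day 1 replicate 2 the 3 became 5, without KO-labelled day 1 replicate 3 the 1 became 2, and the 2 higher on day 3 became 0 without WT replicate 2 or 3 or without KO-labelled replicate 1 of that day. The median log2FC was 0.28 in growth medium and -0.56 on day 3. The interaction called 11 of the 15 on day 3 and 9 on day 6, all with a more negative change in the KO-labelled libraries, beside 4.06% and 5.42% of all tested genes. Myl9, a myosin light chain of non-sarcomeric muscle, was at 159.7 ± 12.6 TPM in WT and 63.9 ± 5.44 TPM in the KO-labelled libraries on day 6 (-1.19 ± 0.12, adjusted p = 1.99e-08), and Ctgf was higher (0.52 ± 0.14, adjusted p = 0.00485), though on log2(TPM + 1) with limma it missed the threshold at log2FC 0.39, adjusted p = 0.0512. In WT, Myl9 and Tagln rose over growth medium by day 6 (log2FC 2.18 ± 0.15 and 2.94 ± 0.25).

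Srf itself was at 56.6 and 57.2 TPM in WT growth medium and 60.3, 65.8 and 72.2 TPM in the KO-labelled libraries, and at 38.6, 43.0 and 47.9 and 51.4, 49.0 and 51.7 TPM on day 6. It was lower on day 6 than in growth medium in WT (-0.58 ± 0.14, adjusted p = 0.000805) and in the KO-labelled libraries (-0.50 ± 0.12, adjusted p = 0.00112). It was higher in the KO-labelled libraries than in WT on day 6 (0.36 ± 0.12, adjusted p = 0.0225). The call between genotypes ended without WT replicate 1 (log2FC 0.27, adjusted p = 0.128), WT replicate 3 (log2FC 0.33, adjusted p = 0.0599) or KO-labelled replicate 3 (log2FC 0.32, adjusted p = 0.0794). Mkl1, which encodes MRTF-A, was slightly lower in WT on day 6 than in growth medium (-0.31 ± 0.11, adjusted p = 0.0201), a call that ended without either growth medium library or without day 6 replicate 1 or 3, at adjusted p from 0.0674 to 0.128. It was lower in the KO-labelled libraries as well (-0.32 ± 0.10, adjusted p = 0.0067). It differed between genotypes on day 6 by 0.088 ± 0.10, adjusted p = 0.52. Mkl2, which encodes MRTF-B, differed by 0.025 ± 0.10, adjusted p = 0.865. The actins with a CArG box in the printed promoters thus moved in both directions, Acta1 and Actc1 up and Actg1 down.

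Likeness of pattern was measured as Pearson's r of log2 depth-scaled counts over the 8 group means, for 8321 genes. The points share all libraries, and r is given as a description. Acta1 was most like Mybph (r = 0.999) and Tnnc2 (r = 0.998), and Actc1 most like Ckm (r = 0.992) and Unc45b (r = 0.988). For Actb these were Tnfaip1 (r = 0.983) and Tirap (r = 0.982), for Actg1 Cdc42 (r = 0.987) and Zfp334 (r = 0.983), for Acta2 Ppme1 (r = 0.963) and Padi2 (r = 0.957), and for Actg2 Nrg1 (r = 0.968) and Tmem47 (r = 0.948). Among the tropomyosins Tpm1 was most like Nes (r = 0.962) and Rictor (r = 0.936), Tpm2 like Ube2g2 (r = 0.995) and Alas1 (r = 0.987), Tpm3 like Ap1s1 (r = 0.996) and Nadk (r = 0.995), and Tpm4 like Tiam2 (r = 0.988) and Cttnbp2nl (r = 0.983). Actbl2, a close copy of the actins, had 0 counts in all libraries.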

How the data were processed

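Gene tables of 23 libraries were used, from poly(A) RNA per the labels' protocols. The authors deposited estimated counts per gene symbol, as whole numbers, and TPM, normalised by them for transcript length and depth. Bowtie2, RSEM and the build mm10 are named in the submitters' processing notes, whose versions, strand setting and annotation are not given in the sources used here. The 10 genes, the lists of partners and the markers were chosen with earlier results of these data known.

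edgeR 4.0.16 (R 4.3.3) fitted 1 model with a mean per group to the counts (rounding them changed none), after TMM scaling and filterByExpr (minimum count 10, minimum total count 15). Its quasi-likelihood F-test was used, and WT growth medium with 2 libraries shared the spread of the others. Benjamini-Hochberg adjustment ran over 14187 genes in each of 13 contrasts, and a gene was called at an adjusted p under 0.05. Standard errors were derived from the F statistic, and are not given for genes at few counts in growth medium. Of 32793 genes, 12326 had 0 counts in every library. Genes at few counts were given as ratios with exact Poisson intervals (95%) or against a floor of 3 counts, and both cover counting error only. Shares are sums of the deposited TPM over a family and carry no test. The implied transcript length is a library's count over TPM for a gene, divided by the median of that ratio over genes with at least 1000 counts in every library. Named genes were the 10, Runx1, Srf, Mkl1, Mkl2 and the close copy Actbl2, the 2 highest and 2 lowest called genes of each list in labelled KO against WT on day 6 and in WT day 6 against growth medium, and the 2 genes most like each of the 10 by log2 depth-scaled counts (CPM, prior count 2) among genes reaching a group mean of 20. Smooth muscle and fibroblast markers beside the actins were taken from the marker lists.

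Alternatives changed the scaling (RLE, or library size only), the filter (none, or a mean count from 50), the tool (DESeq2 1.42.0, or limma 3.58.1 on log2 of TPM plus 1 or 0.1), the samples (only the groups compared, or without 1 library), the model (a replicate block) and the threshold (adjusted p 0.01, or log2FC beyond 1 in size). The steps were tested on simulated data. Promoters and gene positions came from RefSeq tables of GRCm38.p6, and coding identity from the longest reading frames of GENCODE transcripts.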

Additional observations from a re-analysis of the deposited data

Results flagged for a closer look

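A difference between the genotypes in the change since growth medium was found by the interaction term of edgeR for 5 of the 10 genes on day 3 and 6 on day 6, and each value is a log2 difference, KO-labelled libraries minus WT. Smooth muscle actins had the most negative values: Actg2 at -3.17 on day 3 and -3.21 on day 6 (adjusted p = 2.96e-09 and 9.78e-10), and Acta2 at -1.10 and -0.83 (adjusted p = 0.00188 and 0.0137). The Acta2 value on day 6 missed the threshold without WT growth-medium replicate 1 (-0.78, adjusted p = 0.0702). Cytoplasmic actins differed by -0.56 and -0.70 for Actb (adjusted p = 0.0157 and 0.00225) and by -0.37 and -0.46 for Actg1 (adjusted p = 0.0212 and 0.00349). The day 3 value of Actg1 missed the threshold without WT growth-medium replicate 1 or growth-medium replicate 3 labelled KO (adjusted p = 0.0523 and 0.056). Tpm4 differed by -0.50 and -0.60 (adjusted p = 0.00666 and 0.00103), and Tpm2 by 0.63 on day 6 (adjusted p = 0.0193). The Tpm2 value missed the threshold without any 1 of 7 of the libraries, namely either WT growth-medium library, WT day 6 replicate 1 or 3, growth-medium replicate 1 labelled KO, or day 6 replicate 2 or 3 labelled KO (lowest of these 0.47, highest 0.63).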

How the results depend on the processing

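The labels number replicates 1 to 3, but same-numbered libraries did not deviate together: the correlation of their deviations ran from -0.24 to 0.116 over the pairs of groups, and 0 contrasts had every pair above 0.1. A replicate block moved none of the 13 counts of called genes, which stayed at 2, 3, 7 and 8 for KO-labelled against WT, for example. None of the values called among the 10 genes changed direction under any alternative. Of 2319 alternative values for the 10 genes, 2063 had the same direction and side of the threshold, and 86 turned direction, none of them called. Tpm3 (KO-labelled against WT in growth medium, -0.0041) was 0.0078 with RLE and DESeq2 and -0.025 to 0.059 without 1 library. Tpm4 (KO-labelled against WT in growth medium, 0.049) was -0.011 with library size only and -0.012 with limma on log2(TPM + 1) and limma on log2(TPM + 0.1). Actb (KO-labelled against WT on day 1, 0.0056) was -0.018 with RLE and DESeq2, -0.040 with library size only, -0.015 with no filter, -0.041 with a mean count of 50, -0.053 with limma on log2(TPM + 1) and limma on log2(TPM + 0.1), -0.020 with only the groups compared and -0.10 to 0.14 without 1 library. Tpm3 (KO-labelled against WT on day 1, 0.044) was -0.0013 with a mean count of 50 and -0.0012 to 0.074 without 1 library. Tpm4 (KO-labelled against WT on day 1, 0.029) was -0.010 with library size only, -0.013 with a mean count of 50, -0.018 with limma on log2(TPM + 1) and limma on log2(TPM + 0.1) and -0.11 to 0.10 without 1 library. Tpm3 (KO-labelled against WT on day 3, 0.033) was -0.0051 with RLE and DESeq2, -0.022 with library size only, -0.014 with a mean count of 50, -0.12 with limma on log2(TPM + 1) and limma on log2(TPM + 0.1), -0.0018 with only the groups compared and -0.00017 to 0.052 without 1 library. Acta2 (KO-labelled day 1 against growth medium, -0.0053) was 0.079 with library size only, 0.18 with limma on log2(TPM + 1) and limma on log2(TPM + 0.1), 0.0044 with only the groups compared and -0.19 to 0.19 without 1 library. Tpm2 (KO-labelled day 1 against growth medium, -0.0043) was 0.084 with library size only, 0.19 with limma on log2(TPM + 1) and limma on log2(TPM + 0.1), 0.00034 with a replicate block, 0.0057 with only the groups compared and -0.088 to 0.063 without 1 library. Tpm4 (interaction on day 1, -0.020) was 0.0011 with library size only and -0.18 to 0.054 without 1 library. Acta1 (interaction on day 3, -0.15) was 0.34 with limma on log2(TPM + 1) and -0.93 to 0.32 without 1 library. Actc1 (interaction on day 3, 0.011) was -0.038 with RLE, -0.015 with no filter, -0.034 with a mean count of 50, -0.12 with DESeq2, -0.029 with only the groups compared and -0.55 to 0.38 without 1 library. Tpm3 (interaction on day 3, 0.037) was -0.013 with RLE and DESeq2, -0.0083 with a mean count of 50, -0.049 with limma on log2(TPM + 1) and limma on log2(TPM + 0.1), -0.0032 with only the groups compared and -0.064 to 0.058 without 1 library. Mkl1 (KO-labelled against WT on day 6, 0.088) was -0.035 with limma on log2(TPM + 1) and -0.036 with limma on log2(TPM + 0.1). Mkl2 (KO-labelled against WT on day 6, 0.025) was -0.047 with library size only, -0.089 with limma on log2(TPM + 1), -0.096 with limma on log2(TPM + 0.1) and -0.11 to 0.10 without 1 library. Tpm2 (KO-labelled against WT on day 1, 0.070) was -0.0060 to 0.14 without 1 library. Actc1 (interaction on day 1, 0.31) was -0.25 to 0.78 without 1 library. Tpm3 (interaction on day 1, 0.048) was -0.026 to 0.069 without 1 library. Tpm1 (interaction on day 6, 0.031) was -0.098 to 0.15 without 1 library.

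With a log2FC beyond 1 in size, the called genes were 1, 2 and 4 for KO-labelled against WT in growth medium and on days 3 and 6, 2, 6 and 6 for WT on days 1, 3 and 6 against growth medium, 3 for KO-labelled on day 1, and 2 and 1 for the interaction on days 3 and 6. Runx1, at 0.51, 0.35 and 0.54 in growth medium and on days 1 and 3, then missed the rule. The shares of all tested genes under this rule and the other alternatives are not given, so counts of called genes under them have no background. In growth medium, DESeq2 and limma on log2(TPM + 0.1) each called 4 between genotypes, and no filter called 5 on day 1. An adjusted p under 0.01 left 3 for the day 3 interaction. The day 1 interaction had 2 with no filter, DESeq2 or limma on log2(TPM + 1), and 1 with a mean count of 50 or limma on log2(TPM + 0.1). Leaving out 1 library gave 1 to 4 for growth medium between genotypes and 0 to 2 for the day 1 interaction. As shares of counts in place of TPM, the sarcomeric gap between genotypes was 0.431 percentage points on day 1 (0.587 by TPM) and 39.4 on day 6 (44.8 by TPM); without 1 library it was 43.9 to 46.4 on day 6. The cause of these changes was not tested. Depth limits Acta1 and Actc1 in growth medium, where single reads move the fold.

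The same alternatives were run on the 23 differences given for genes of the partner lists, and on the lists' counts, an addition chosen after seeing the data. Of 380 values, 346 had the same direction and side of the threshold, 27 lost the call and 7 turned direction, all 7 of the uncalled Mkl1 and Mkl2. Beside the libraries named with Tmsb10, Srf and Mkl1, limma on log2(TPM + 1) or log2(TPM + 0.1) ended the calls of Ctgf, Srf on day 6 between genotypes and Mkl1 in both genotypes (in WT -0.14 with a pseudocount of 1, from -0.31), and library size only ended that of Mkl1 in WT (-0.23, adjusted p = 0.0594). With only the groups compared, the cytoplasmic regulators higher in growth medium were 10 (6 in the full model) and those lower in the day 3 interaction 15 (8), and the sarcomeric partners higher on day 1 were 6 (11). DESeq2 called 8 sarcomeric partners higher in growth medium (4). On log2(TPM + 1), 6 cytoplasmic regulators were lower on day 1 (3) and 8 higher in WT on day 6 against growth medium (4), and 0 SRF genes were higher on days 3 and 6 (2 each). With a log2FC beyond 1 in size, the sarcomeric partners higher between genotypes were 3, 5, 9 and 16 on days 0, 1, 3 and 6 (4, 11, 16 and 18), and the SRF genes lower in the interaction 7 and 4 on days 3 and 6 (11 and 9).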
